A study of Xenopus laevis with 11 samples.

Results

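The mitochondrial respiratory chain and its ATP synthase were measured through 67 gene symbols out of 7531 on the array. A symbol was taken in when the platform annotation gave its probe set exactly 1 symbol and that symbol, without regard to case or to the suffixes .L and .S, began with nduf, uqcr or atp5, was cox followed by a digit from 4 to 8, or was sdha, sdhb, sdhc or sdhd. This frog is allotetraploid, and .L and .S tell apart copies lying on the longer and the shorter member of a chromosome pair. For uqcrq.S and cox7a2l.L the listed chromosomes, 3L and 5S, disagree with the suffix. With copies merged the 67 symbols were 54 genes. Where a symbol had several probe sets, the one with the highest mean over all arrays was used, so that 67 of 70 probe sets entered. By the complex their names place them in, 26 symbols were subunits of complex I (7 core and 19 other), 1 was a complex I assembly factor, 4 belonged to complex II, 5 to complex III, 13 to complex IV and 18 to ATP synthase.

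The study followed ectoderm of Xenopus laevis embryos through the induction of the neural crest, the migratory cell population that arises at the edge of the neural plate and forms pigment cells, peripheral neurons and much of the facial skeleton. Total RNA from microdissected tissue was labelled with biotin and hybridised to 11 Affymetrix arrays. The groups were neural plate at stage 12 (2 arrays), neural border at stage 14 (3 arrays), neural border at stage 18 (2 arrays), anterior neural fold at stage 18 (3 arrays) and animal cap explants at stage 14 (1 array), which the labels equate with epidermis. The anterior neural fold is border tissue that gives no crest. The labels name no mutation, injection or drug for any group, and all embryos were grown in the same dilute saline at the same temperature. Because stage and tissue change together between the plate and either stage 14 tissue, their effects cannot be told apart there.

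Most ATP of an animal cell with enough oxygen comes from this machinery in the inner mitochondrial membrane. Complex I takes electrons from NADH and complex II takes them from succinate, both pass them through ubiquinone to complex III, and complex III passes them through cytochrome c to complex IV, which reduces oxygen. Complexes I, III and IV pump protons while they do so, and ATP synthase makes ATP as the protons return. The genes described here are in the nucleus, and a further part of every complex but complex II is encoded by mitochondrial DNA. A frog egg is provided with a large store of mitochondria, and the early embryo divides them among its cells.

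Values are log2 intensities, so a difference of 1 is a 2-fold difference, and a level is compared only between arrays and never between probe sets. A level below 3.72, the 95th percentile of 17 control probe sets that should bind no frog transcript, was not told apart from background. The array medians over all probe sets lay between 4.94 and 5.04. Of the 67 members, cox4i2.L was below background on all 11 arrays and ndufs4.S and sdha.S were below it on some. No filter on low values was applied, and all 67 were tested with limma in a model of all 15491 probe sets that are not controls. The p-values were adjusted over all of these probe sets, with a threshold of 0.05. Shares given for all probe sets therefore include dim ones. Of the 15491 probe sets, 10963 had a mean over all arrays that was not below 3.72. The labels call the arrays biological replicates without naming separate clutches, so p-values here speak for the spread between these arrays alone, and part of it may be technical. The lone animal cap array has no SD, and the model takes its spread to be that of the other groups. These are bulk samples, in which fewer cells of a type and less RNA per cell cannot be told apart, and precision is limited by how few arrays there are.

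Summed marker levels set the animal cap and the borders apart, while some single markers did not follow the labels. The log2 summed level of 7 neural plate marker symbols was 7.91 in the animal cap and between 11.7 and 13.0 on every other array. The summed level of 14 border and crest markers was 11.7 to 12.1 in the borders of both stages and 9.64 to 10.7 in the other 3 groups. Among them pax3.L was highest in the anterior fold (9.12) and the cap (8.98). The neural markers ncam1.L and ncam1.S were at 3.40 and 3.86 in the plate, against 3.07 and 3.78 in the cap. The notochord marker tbxt.S was at 5.93 in the plate and at 3.03 to 3.30 in the other groups. The epidermis sum was 14.0 to 14.4 in the stage 18 border and 14.6 in the cap. Of its markers, krt70.L, itln1.L and tp63.L had higher means in this border than in the cap, and the others had lower ones. For example, grhl1.L was at 7.76 in the border and 9.97 in the cap. Endoderm and blood markers stayed between 5.79 and 6.25 in all groups, with 5 or more of 6 blood markers below background everywhere but the animal cap, which had 3 of 6 below.

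The main pattern was a low level of many respiratory chain genes in the stage 12 plate. Both plate arrays lay below all 9 other arrays for 21 of the 67 members (31.3%), against 15.4% of all probe sets. They lay above all 9 others for 7 members (10.4%), against 17.9% of all probe sets. The median over the 67 members was 7.24 ± 0.03 in the plate (SD, n = 2), 7.69 ± 0.05 in the stage 14 border (n = 3), 7.43 ± 0.08 in the stage 18 border (n = 2), 7.50 ± 0.15 in the anterior neural fold (n = 3) and 7.73 in the animal cap. The plate was below the other 4 groups by this measure, while the stage 18 border and the anterior fold differed by less than the SD of the fold. By group means, the plate was the lowest of the 5 groups for 27 members (40.3%, against 26.4% of all probe sets) and the stage 18 border for 24 (35.8%, against 18.0%). The animal cap was the highest for 27 members (40.3%, against 30.3%).

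**Figure D1:**
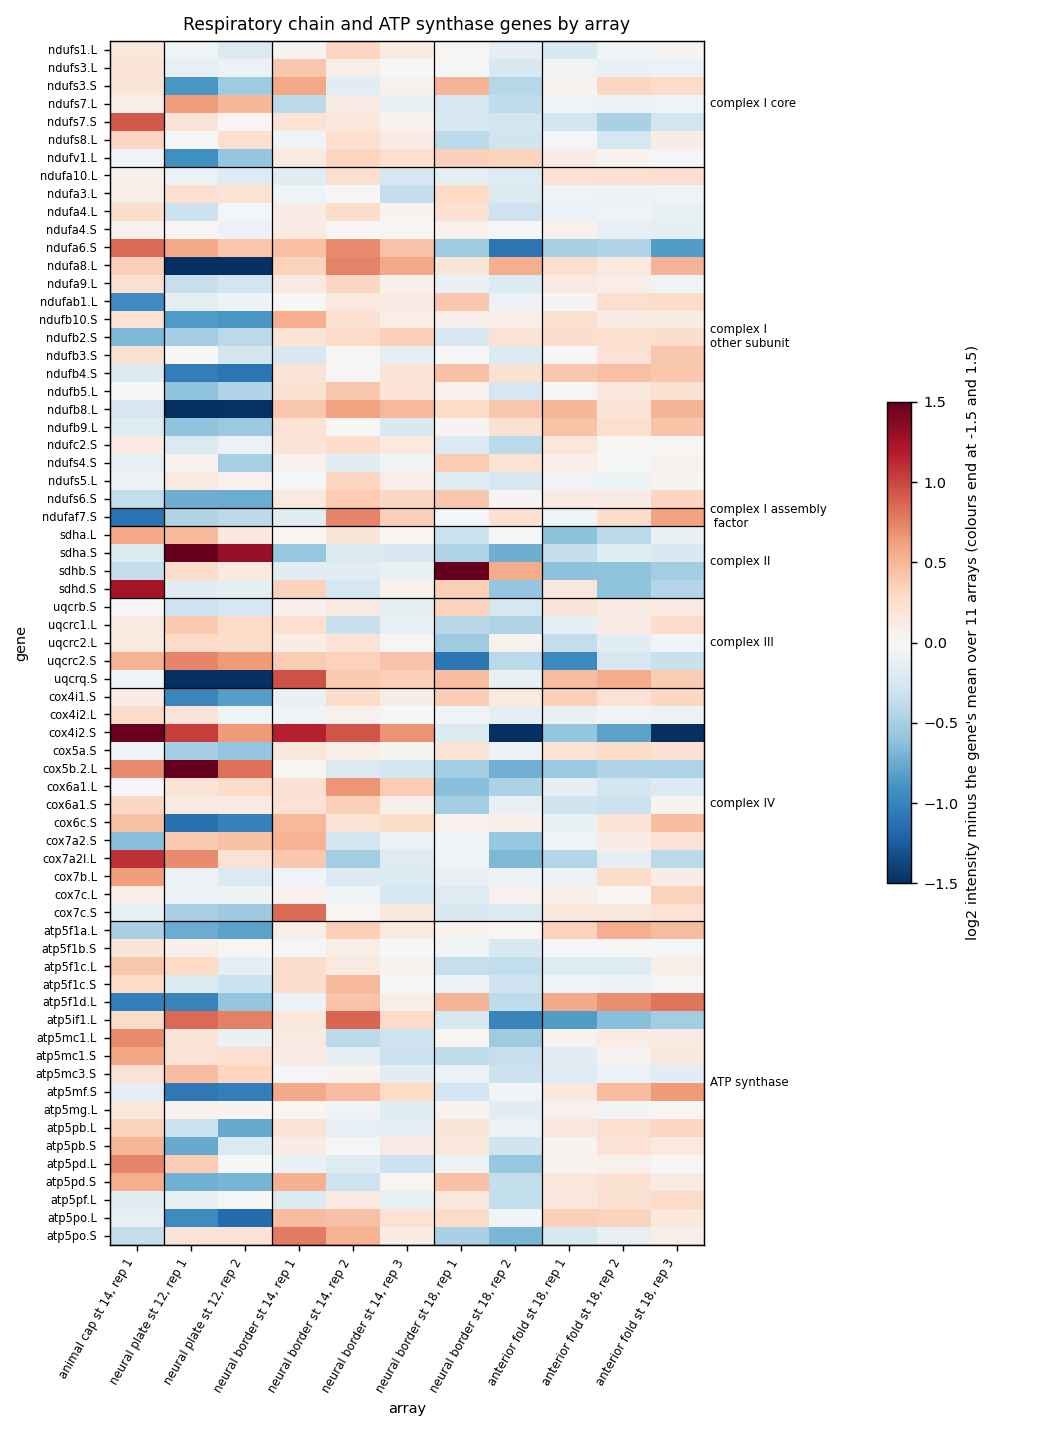
Log2 intensity of each of the 67 genes (rows, by complex) on each of the 11 arrays (columns, by group), as the difference from the gene's own mean over the arrays. Blue is below and red above that mean. The plate columns are blue for the 21 genes that both plate arrays had lowest, and red for sdha.S and cox5b.2.L.

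Between the stage 12 plate and the stage 14 border, the tissue in which crest is being specified, 26 of the 67 members rose (38.8%, against 19.6% of all probe sets) and 4 fell (5.97%, against 21.4% of all probe sets). Together 30 members passed in either direction, where 41% of all probe sets did. Without the dim probe sets, 29 of 64 members passed, and of 10963 probe sets 2915 rose and 2851 fell. Both of these probe set shares are larger than those over all probe sets. The median log2 difference was 0.18 over the members and 0.01 over all probe sets. Of the 30 changes 11 were 2-fold or more, and the matching share over all probe sets was not counted. By complex, 2 of 7 core and 10 of 19 other subunits of complex I rose, as did the assembly factor, 1 of 5 members of complex III, 4 of 13 of complex IV and 8 of 18 of ATP synthase. The 4 that fell were 1 each in the complex I core, complex II, complex IV and ATP synthase. Of the 30 changes, 20 passed the threshold under each alternative processing in which they could be tested. Without stage 14 border replicate 1 the members that fell numbered 8 in place of 4 and the median difference was 0.12, and 7 fell without replicate 1 or without replicate 2 of the stage 18 border.

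Complex I held the member with the largest rise. ndufa8.L, an accessory subunit of complex I, was at 5.53 and 5.15 on the plate arrays and at 7.49, 7.90 and 7.72 on the stage 14 border arrays. On the stage 18 border arrays it was at 7.33 and 7.70, in the anterior fold at 7.39, 7.31 and 7.67, and in the animal cap at 7.52. The plate arrays stood alone at the bottom and the other 9 overlapped one another. The border level exceeded the plate level 5.15-fold (log2 difference 2.37, SE 0.18, adjusted p = 8.68e-06). ndufb8.L, an accessory subunit of the membrane arm, was at 5.13 and 5.32 in the plate and at 7.21, 7.41 and 7.29 in the stage 14 border. Its level was 7.09 and 7.20 in the stage 18 border, 7.30, 7.0 and 7.31 in the anterior fold and 6.55 in the animal cap. For ndufb8.L the animal cap thus lay between the plate and the border and fold arrays. The border was higher than the plate 4.22-fold (log2 difference 2.08, SE 0.13, adjusted p = 2.737e-06).

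Further accessory subunits rose by smaller amounts. ndufb4.S was at 4.84 and 4.79 in the plate against 6.08, 5.90 and 6.08 in the stage 14 border, a log2 difference of 1.21 (adjusted p = 2.195e-05), and it was the only member (1.49%, against 3.56% of all probe sets) that all 5 stage 18 arrays had above all 6 earlier ones. ndufs6.S, an accessory subunit close to the NADH-oxidising part, was at 5.30 on both plate arrays and at 6.18 to 6.42 in the border, a log2 difference of 1.02. ndufb5.L, ndufb2.S, ndufb9.L, ndufa9.L and ndufc2.S rose by 0.81, 0.74, 0.58, 0.49 and 0.36 on the log2 scale. The rises of ndufb9.L and ndufc2.S did not pass without plate replicate 1, and that of ndufc2.S did not pass without stage 14 border replicate 1 or 2. ndufaf7.S, a methyltransferase that mammals need to assemble complex I, rose by 0.72 with an adjusted p of 0.0464, and this call passed under 9 of 17 alternatives. It was lost, among others, without either plate array, without stage 14 border replicate 2 or 3, without either stage 18 border array and without anterior fold replicate 2.

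The core subunits of complex I, most of which carry its flavin or iron-sulfur clusters or bind quinone, did not move together. ndufv1.L, which holds the flavin that accepts electrons from NADH, was at 7.62 and 7.96 in the plate and at 8.69, 8.87 and 8.79 in the stage 14 border. In the stage 18 border it was at 8.90 and 8.87, above the anterior fold at 8.66, 8.60 and 8.53. The plate was again lowest, and the border exceeded it 1.99-fold (log2 difference 0.99, SE 0.12, adjusted p = 0.000151). ndufs3.S rose by 0.86 (adjusted p = 0.0343) and lost the call without stage 14 border replicate 1 or 3 or without either plate array, while its copy ndufs3.L had a log2 difference of 0.27. ndufs7.L, whose product carries the last iron-sulfur cluster before quinone, went the other way, from 7.0 and 6.88 in the plate to 5.99, 6.49 and 6.27 in the border (log2 difference -0.69, adjusted p = 0.00319). ndufs1.L and ndufs8.L passed the threshold in none of the 5 comparisons.

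In complex III a single subunit passed the threshold. uqcrq.S, a small subunit of the complex, was at 6.55 and 6.76 in the plate and at 9.32, 8.76 and 8.73 in the stage 14 border. It was at 8.83 and 8.26 in the stage 18 border, at 8.83, 8.93 and 8.75 in the anterior fold and at 8.31 in the animal cap. All 9 other arrays were above the plate arrays by more than 1 on the log2 scale, and the border was higher 4.86-fold (log2 difference 2.28, SE 0.21, adjusted p = 2.405e-05). The core proteins uqcrc1.L, uqcrc2.L and uqcrc2.S were each higher on both plate arrays than on the other 9, with log2 differences between border and plate of -0.42, -0.18 and -0.30 that did not pass the threshold.

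**Figure D2:**
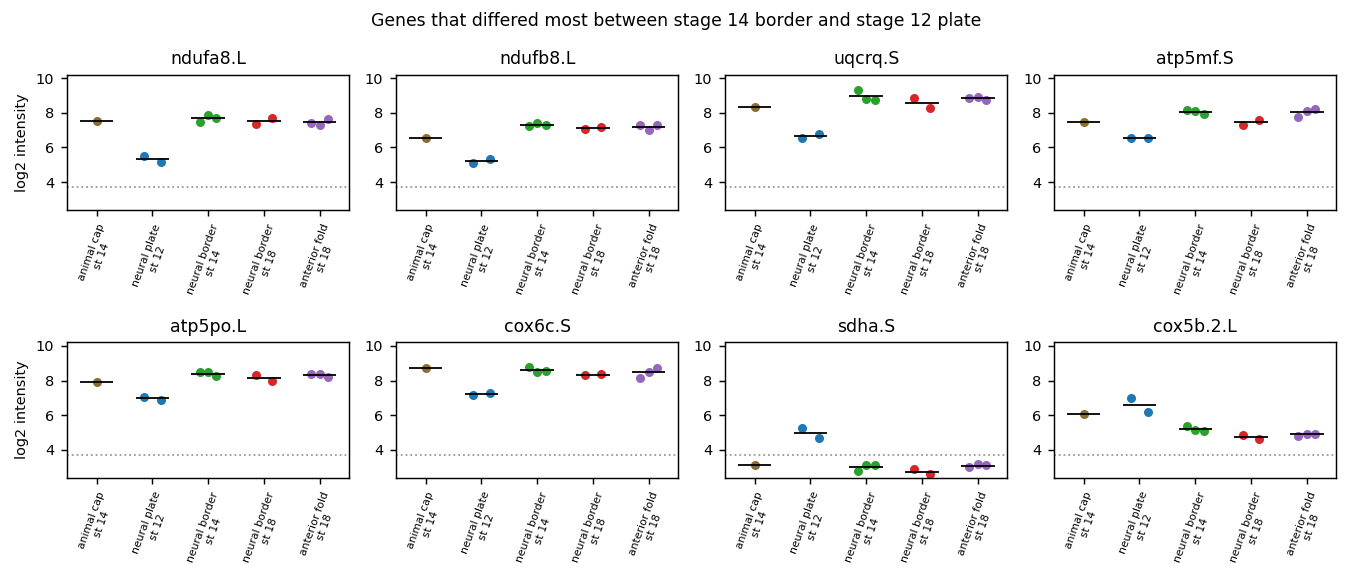
Log2 intensity of 8 genes on every array (points), with the group mean as a line and the background level of 3.72 dotted. For the first 6 genes the plate points are the lowest, and for sdha.S and cox5b.2.L they are the highest.

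Complex IV, cytochrome c oxidase, had rises in some of its nuclear subunits. cox6c.S was at 7.16 and 7.26 in the plate against 8.76, 8.48 and 8.55 in the stage 14 border, with 8.17 to 8.74 on the 5 stage 18 arrays and 8.72 in the animal cap. The border was 2.62-fold above the plate (log2 difference 1.39, SE 0.16, adjusted p = 9.83e-05). cox4i1.S, which in mammals is the common form of subunit 4, was at 7.13 and 7.29 in the plate and at 8.02, 8.38 and 8.23 in the border. It rose by 1.00 on the log2 scale (adjusted p = 0.000249), and its second probe set by 1.03. cox7c.S and cox5a.S rose by 0.85 and 0.65. In contrast cox5b.2.L fell, from 7.01 and 6.21 in the plate to 5.41, 5.16 and 5.10 in the stage 14 border (log2 difference -1.38, SE 0.21, adjusted p = 0.000443). It was lower still on the stage 18 arrays, at 4.66 to 4.93, and was at 6.09 in the animal cap.

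ATP synthase consists of a catalytic head (F1), a rotating ring in the membrane and a peripheral stalk that holds the head still. In the membrane part, atp5mf.S rose from 6.53 and 6.57 in the plate to 8.17, 8.07 and 7.90 in the stage 14 border, 2.83-fold (log2 difference 1.50, SE 0.16, adjusted p = 4.849e-05). In the stalk, atp5po.L, which caps the head, rose from 7.08 and 6.87 to 8.49, 8.46 and 8.23, 2.68-fold (log2 difference 1.42, SE 0.14, adjusted p = 3.555e-05). For both genes the plate arrays were the lowest of the 11. The stalk genes atp5pd.S, atp5pb.S and atp5pb.L rose by 0.79, 0.56 and 0.52. Without 1 array or another these 3 calls were lost: that of atp5pd.S without stage 14 border replicate 1 or 3 or either plate array, that of atp5pb.S without border replicate 1 or 3 or plate replicate 1, and that of atp5pb.L without border replicate 1 or plate replicate 2.

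In the head, atp5f1a.L, the alpha subunit, was at 8.35 and 8.28 in the plate and at 9.18, 9.45 and 9.22 in the border, a rise of 0.97 (adjusted p = 0.000125). atp5f1d.L, the delta subunit, rose by 0.94 and lost the call without plate replicate 1. atp5f1c.S, the gamma subunit, rose by 0.51 and lost it without either plate array. The beta subunit, which carries the catalytic sites, had no such difference: atp5f1b.S was at 10.76 and 10.71 in the plate and at 10.65, 10.78 and 10.67 in the border, and its group means spanned 0.33 over all 5 tissues. atp5mc3.S, a ring subunit, fell by 0.44 (adjusted p = 0.0134, lost without plate replicate 1 or stage 14 border replicate 3).

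Complex II differs from the others in that all its subunits are nuclear and in that it is also an enzyme of the tricarboxylic acid cycle. sdha.S, a copy of the flavoprotein subunit, was at 5.25 and 4.66 in the plate and between 2.62 and 3.17 on all 9 other arrays, where it was not told apart from background. Its plate mean of 4.96 exceeded the measured stage 14 border mean of 3.02 (adjusted p = 2.797e-05 by limma on the measured values). Against the background level the plate mean was at least 2.35-fold higher, a bound that was not itself tested. The other copy, sdha.L, was far above background on all arrays, at 8.29 and 7.96 in the plate, at 7.83, 7.98 and 7.84 in the stage 14 border and at 7.18 to 7.78 on the stage 18 arrays, and passed in no comparison. sdhb.S, the iron-sulfur subunit, and sdhd.S, a membrane anchor, had log2 differences between border and plate of -0.35 and 0.20. That of sdhb.S passed the threshold without stage 18 border replicate 1 or replicate 2 (adjusted p = 0.0203 in both cases).

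**Figure D3:**
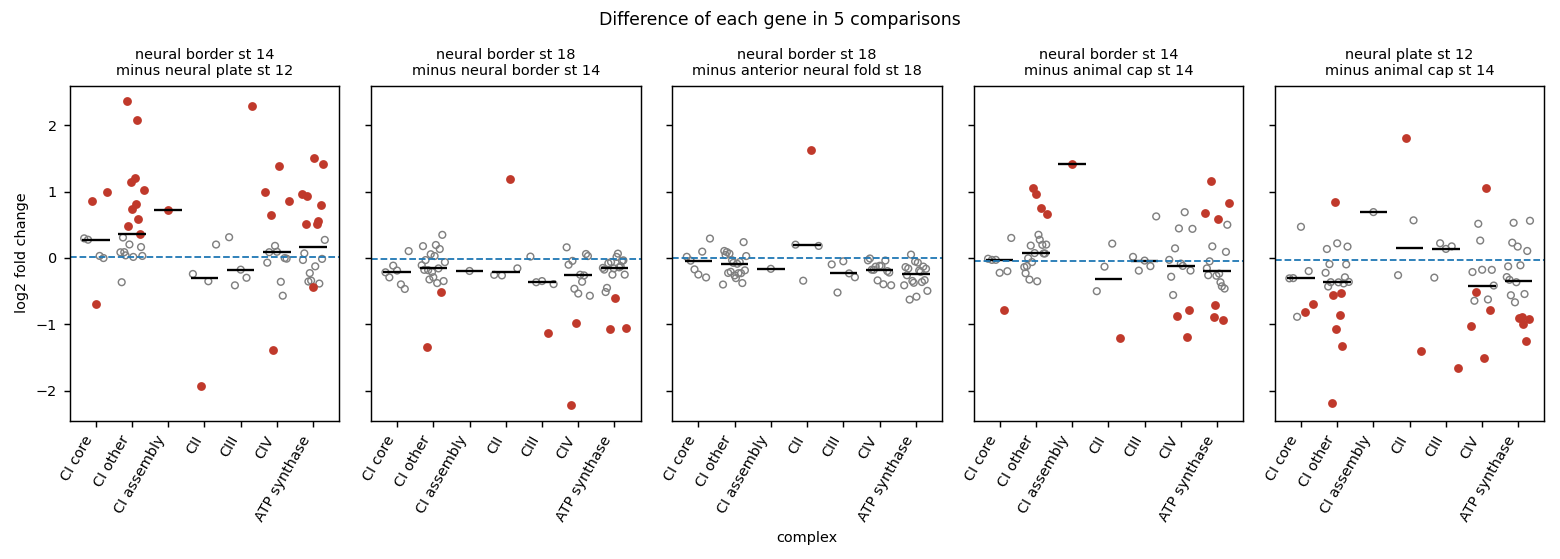
Log2 fold change of each of the 67 genes (points) by complex in the 5 comparisons named above the panels, with the median of each complex as a black line and the median of all probe sets as a dashed line. Filled points passed the adjusted p threshold. In the first panel most filled points lie above 0, in the second most lie below.

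Other gene groups were set beside these to show what else differed between the stage 14 border and the plate. Cytosolic ribosomal protein genes rose in 69 of 74 cases (93.2%, median log2 difference 0.96), more than the respiratory chain genes in share and size. Genes of mitochondrial ribosomes rose in 10 of 38 cases and fell in 10 (median -0.02), and import genes and chaperones rose in 5 of 23 and fell in 4 (median 0.22). A list of assembly factors, mostly of complexes III to V but also holding timmdc1.L and tmem126a.L of complex I, rose in 3 of 14 cases and fell in 4, among them bcs1l.L, which inserts the iron-sulfur protein into complex III, at -1.44. Carriers and electron links rose in 3 of 20 and fell in 5 (median -0.03). Cytochrome c itself, cycs.S, had a log2 difference of 0.16, and cyc1.L, the cytochrome of complex III that its own name keeps outside the 67, had -0.01.

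Genes of fuel breakdown fell more often than they rose. Of 18 genes of the tricarboxylic acid cycle and pyruvate dehydrogenase, 10 fell and 1 rose (median -0.53). Both copies of mitochondrial malate dehydrogenase fell, mdh2.L by 1.45 and mdh2.S by 1.41 on the log2 scale, as did the pyruvate dehydrogenase gene pdhb.L, by 1.22. The one that rose was idh3b.S, an isocitrate dehydrogenase subunit, at 1.25. Of 26 glycolysis genes 11 fell and 3 rose (median -0.54). The enolase gene eno1.S and the glucose phosphate isomerase gene gpi.S fell by 2.00 and 1.97, while pfkm.S, a phosphofructokinase, rose by 1.32. Among transcription factors and mtDNA genes, yy1.S and yy1.L fell by 1.65 and 1.26, the helicase gene twnk.L rose by 0.74, and 11 of 14 did not pass. Differences between these groups and the respiratory chain were not tested.

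**Figure D4:**
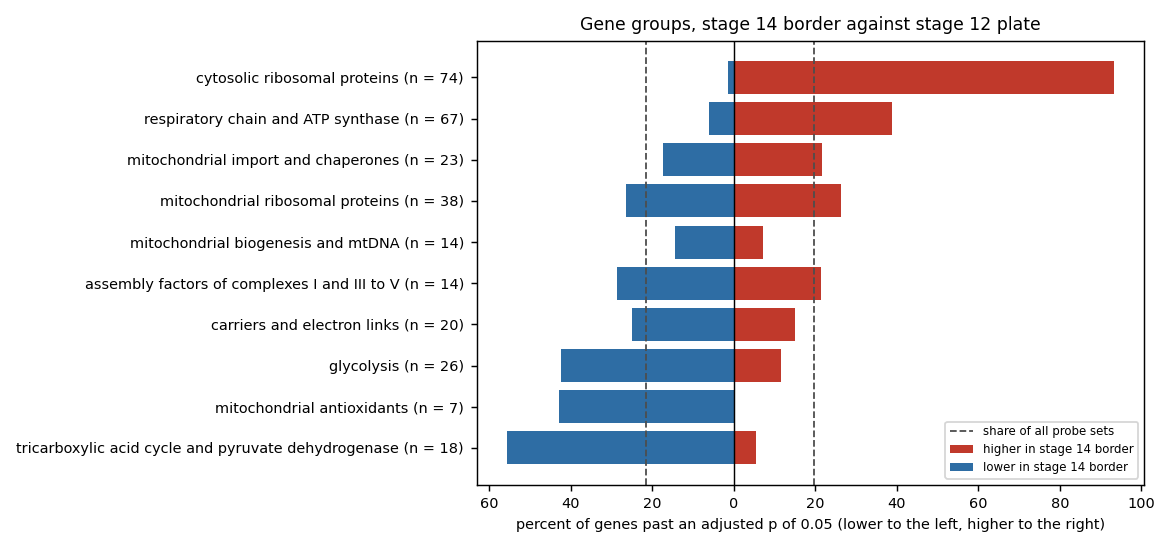
Share of each gene group (percent of its genes, with their number) that was higher (right) or lower (left) in the stage 14 border than in the stage 12 plate. Dashed lines give the share of all probe sets, 19.6% higher and 21.4% lower, and the respiratory chain bar reaches 38.8% to the right and 5.97% to the left.

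Some cell type markers and the beta actin control probe sets, but not those of Gapd, moved with the same comparison. The log2 summed level of 11 epidermis markers was 12.1 to 12.2 in the plate and 13.0 to 13.4 in the stage 14 border, and 8 of the 11 rose. Of 14 border and crest markers 12 rose, and of 6 gland markers 5 rose. Of 5 notochord markers 3 fell and 1, nog.L, rose, from below background in the plate to 5.46 in the border. The summed level of 7 neural plate markers was 12.8 to 13.0 in the plate and 11.9 to 12.0 in the border, where 3 of them fell and 2 rose. Of 10 anterior fold markers 2 fell. Markers of ionocytes, the mitochondria-rich cells of the epidermis, had a summed level of 7.35 to 7.61 in the plate and 6.99 to 7.19 in the border. In both tissues 4 of 7 were below background. Only atp6v1a.L of the 7 passed, at 6.57 in the plate, 6.07 in the border and 5.90 in the cap, where foxi1.L was highest (7.45). Muscle markers were at 6.61 to 7.01 in both tissues with 5 of 8 below background. Between these tissues mylpf.L was below background only in the plate and myf5.L only in the border. The difference between the 3' and 5' beta actin control probe sets was -2.51 ± 0.07 in the plate (SD, n = 2) and -2.93 ± 0.16 in the border (n = 3), while that of the Gapd controls was 2.30 ± 0.19 and 2.29 ± 0.24. The part of these markers and controls in the result was not tested.

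Against the animal cap, the plate was again the lower tissue. With the same plate arrays entering both comparisons and a single cap array, the values are given beside those above and not as a second line of evidence. In the plate 19 of 67 members were lower than in the cap (28.4%, against 14.6% of all probe sets) and 3 were higher (4.48%, against 16.7%), 22 in either direction where 31.3% of all probe sets passed, with a median log2 difference of -0.31 over members and -0.03 over all probe sets. The largest differences were those of ndufa8.L (-2.18, adjusted p = 0.000144), uqcrq.S (-1.66, adjusted p = 0.00166), cox6c.S (-1.51), sdhd.S (-1.40), ndufb8.L (-1.33) and atp5pd.S (-1.25). Those of sdhd.S and atp5pd.S lost the call without either plate array. Higher in the plate were sdha.S, at least 2.35-fold, cox7a2.S (1.05) and ndufab1.L (0.84), and cox7a2.S lost the call without either plate array. cox7a2.S, a small complex IV subunit, was at 6.66 in the cap and at 7.68 and 7.73 in the plate. ndufab1.L encodes the acyl carrier protein that mitochondria use for fatty acid synthesis and in complex I, and it was at 6.59 in the cap and above 7.4 on every other array. In the same comparison 39 of 74 cytosolic ribosomal protein genes were lower in the plate and 7 of 18 tricarboxylic acid cycle genes were higher. Cell type markers differed strongly: all 11 epidermis markers were lower in the plate (summed level 12.1 to 12.2, against 14.6 in the cap), as were 4 of 6 multiciliated markers (6.46 to 6.52, against 8.34), 3 of 7 ionocyte markers (7.35 to 7.61, against 8.54) and 4 of 6 gland markers (8.13 to 8.63, against 10.96). Among the multiciliated markers that were lower, tekt2.S was below background in both tissues, at 2.45 in the plate and 3.56 in the cap. Of the 7 ionocyte markers 1 was higher in the plate, as were 5 of 7 neural plate and 3 of 5 notochord markers. The beta actin difference between 3' and 5' probe sets was -2.51 in the plate and -3.14 in the cap, and that of Gapd was 2.30 and 1.85. Their part in the result was not tested.

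The stage 14 border and the stage 14 animal cap are tissues of 1 stage with different fates. Members differed between them in both directions, in smaller shares than all probe sets, and the cap was a single array. In the border 9 members were higher (13.4%, against 15.1% of all probe sets) and 8 were lower (11.9%, against 15.8%). In either direction 17 members passed, where 30.9% of all probe sets did. Without the dim probe sets, 17 of 64 members passed, and of 10963 probe sets 2307 were higher and 2007 lower in the border. The median was -0.04 for the members and for all probe sets. Higher in the border were ndufaf7.S (1.41, adjusted p = 0.00841), atp5f1d.L (1.17), ndufab1.L (1.05), ndufb2.S (0.96), atp5po.S (0.83) and ndufb8.L (0.75). For ndufaf7.S the cap was at 4.65 and the stage 14 border at 5.58, 6.49 and 6.12, the other arrays lying between 5.31 and 6.36.

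The 8 that were lower in the border than in the cap came from complexes I, II and IV and ATP synthase. sdhd.S was at 7.30 in the cap and at 6.40, 5.78 and 6.11 in the border (log2 difference -1.20, SE 0.38, adjusted p = 0.0374), and the cap was above all other arrays for it. cox7a2l.L, which in mammals helps complexes III and IV to join, was at 6.79 in the cap and at 6.10, 5.18 and 5.51 in the border (-1.19, adjusted p = 0.028). atp5pd.L, atp5mc1.L, cox5b.2.L and cox7b.L were lower by 0.93, 0.90, 0.87 and 0.78, and both ring subunit copies were lower, atp5mc1.S by 0.71. Without stage 14 border replicate 2 or replicate 3 the 8 became 5 or 4, and the median over members became -0.08 or 0.01. Without either of these arrays the calls of sdhd.S, cox7a2l.L and cox5b.2.L were lost, that of sdhd.S also without either plate array or anterior fold replicate 3, and that of atp5mc1.L without border replicate 3. Of the markers, 9 of 11 epidermis, 2 of 6 multiciliated and 4 of 7 ionocyte genes were lower in the border and all 7 neural plate and 10 of 14 border and crest genes were higher, with an ionocyte sum of 8.54 in the cap and 6.99 to 7.19 in the border. Their part in these differences was not tested.

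From stage 14 to stage 18 of the neural border, 8 members fell (11.9%, against 2.78% of all probe sets) and 1 rose (1.49%, against 3.78%), 9 members in either direction where 6.56% of all probe sets passed. The median log2 difference was -0.19 over the members and -0.02 over all probe sets, and at an unadjusted p under 0.05 there were 18 lower members (26.9%, against 9.95% of all probe sets). Of all probe sets 585 rose and 431 fell, and with each array centred on its median 501 rose and 574 fell, while 9 members fell. The count of 8 was not stable. It was 5 without stage 14 border replicate 1, without plate replicate 1 or 2 and without anterior fold replicate 2, it was 4 without stage 14 border replicate 2, and it was 3 without stage 14 border replicate 3 or stage 18 border replicate 2. When only the 5 arrays of these groups were modelled, 1 member fell and the rise was lost. The median was -0.31 without stage 18 border replicate 1 and -0.11 without replicate 2.

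The fall that passed under all 17 alternatives was that of ndufa6.S, an accessory subunit of complex I in the arm that stands out from the membrane. It was at 7.72 in the animal cap, at 7.43 and 7.29 in the plate and at 7.32, 7.58 and 7.30 in the stage 14 border, and then at 6.33 and 5.77 in the stage 18 border and 6.37, 6.42 and 6.04 in the anterior fold. All 5 stage 18 arrays were below all 6 earlier arrays. The border at stage 18 was 2.55-fold below that at stage 14 (log2 difference -1.35, SE 0.18, adjusted p = 0.00402).

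cox4i2.S had the largest and least even fall. In mammals COX4I2 is the alternative form of subunit 4 that responds to low oxygen. Its level was 9.37 in the cap, 8.92 and 8.53 in the plate, 9.04, 8.83 and 8.55 in the stage 14 border, 7.68 and 5.50 in the stage 18 border and 7.30, 7.08 and 5.92 in the anterior fold. Stage 18 arrays were all below earlier ones but were spread widely, with stage 18 border replicate 2 and anterior fold replicate 3 the lowest. The fitted difference was -2.22 with an SE of 0.57 (adjusted p = 0.0476), and it passed under 6 of 17 alternatives. The call was lost without any 1 of the stage 14 border arrays, either plate array, stage 18 border replicate 2 or anterior fold replicate 1 or 2. The common form cox4i1.S was at 8.02, 8.38 and 8.23 in the stage 14 border and at 8.49 and 8.25 in the stage 18 border, a difference that did not pass the threshold.

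The other falls were in complexes I, III and IV and in ATP synthase. uqcrc2.S, a core protein of complex III, was at 6.22, 6.20 and 6.27 in the stage 14 border, at 4.76 and 5.44 in the stage 18 border and at 4.88, 5.60 and 5.52 in the anterior fold (log2 difference between borders -1.13, adjusted p = 0.022). atp5if1.L, the inhibitor that stops ATP synthase from running backwards, was at 7.23, 7.94 and 7.36 in the stage 14 border, at 6.83 and 6.07 in the stage 18 border and at 6.22, 6.43 and 6.54 in the fold (-1.06, adjusted p = 0.0358). For both genes every stage 18 array lay below every earlier one. cox6a1.L was at 9.07, 9.52 and 9.23 in the stage 14 border and at 8.22 and 8.38 in the stage 18 border (-0.97, adjusted p = 0.00472). atp5po.S, from 7.81, 7.55 and 7.14 to 6.54 and 6.34, fell by 1.06 (adjusted p = 0.0108). atp5mf.S and ndufc2.S fell by 0.61 and 0.52.

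Each of these calls but that of cox6a1.L depended on single arrays. That of uqcrc2.S was lost without stage 14 border replicate 3 or stage 18 border replicate 1, and those of atp5po.S, ndufc2.S, atp5if1.L and atp5mf.S without stage 18 border replicate 2. The call of atp5mf.S was also lost without any other array of the 2 borders, either plate array or anterior fold replicate 2, that of ndufc2.S without any array of the stage 14 border, and that of atp5if1.L without stage 14 border replicate 2 or 3, either plate array or anterior fold replicate 2 or 3. All 5 stage 18 arrays lay below all 6 earlier ones for 9 of the 67 members (13.4%, against 5.57% of all probe sets), namely ndufa6.S, ndufs7.S, sdha.L, uqcrc2.S, cox4i2.S, cox5b.2.L, cox6a1.L, cox6a1.S and atp5if1.L.

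sdhb.S, the iron-sulfur subunit of complex II, was the member that rose. It was at 6.52, 6.51 and 6.57 in the stage 14 border and at 8.20 and 7.23 in the stage 18 border, a 2.27-fold rise (log2 difference 1.18, SE 0.22, adjusted p = 0.015). The 2 stage 18 border arrays were the highest of the 11, though far apart from each other. Levels elsewhere were 6.95 and 6.82 in the plate, 6.32 in the cap and 6.06, 6.07 and 6.15 in the anterior fold. sdha.L and sdhd.S, its partners in the complex, had log2 differences of -0.25 and -0.16 between the borders.

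**Figure D5:**
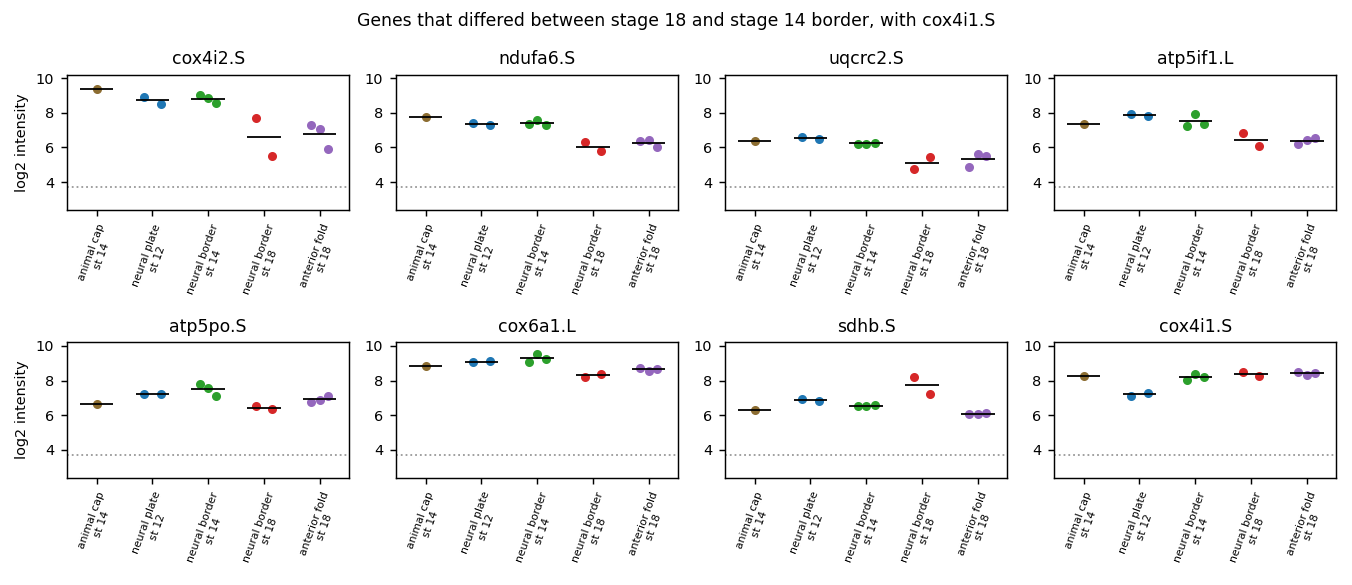
Log2 intensity of 8 genes on every array (points), with the group mean as a line and the background level of 3.72 dotted. For cox4i2.S, ndufa6.S, uqcrc2.S and atp5if1.L all stage 18 points lie below all earlier ones, sdhb.S is highest in the stage 18 border, and cox4i1.S has no such drop.

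Among the gene groups set beside these, 4 of 18 tricarboxylic acid cycle genes fell between the borders, mdh2.L and mdh2.S by 1.65 and 1.53 on the log2 scale. Of 74 cytosolic ribosomal protein genes 1 fell (median difference 0.05). Among transcription factors and mtDNA genes, esrra.L rose by 1.57, gabpa.S and ssbp1.L fell by 1.01 and 0.66, and the others did not pass. Of the markers, 5 of 11 epidermis, 2 of 6 multiciliated, 2 of 8 muscle and 3 of 6 gland genes rose, as did 3 of 14 border and crest genes and 1 of 5 notochord genes, while 3 of 10 anterior fold genes and 1 of 7 neural plate genes fell. The epidermis sum was 14.0 to 14.4 in the stage 18 border against 13.0 to 13.4 at stage 14, and the ionocyte sum was 7.26 to 8.19 against 6.99 to 7.19, with 2 of 7 below background against 4 of 7. The muscle sum was 6.74 to 7.44 against 6.61 to 7.01. The part of these cell types in the differences between the borders was not tested.

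Between the tissues of stage 18, the crest-forming border and the anterior fold, 1 of 67 respiratory chain genes passed the threshold. sdhb.S was higher in the border 3.09-fold (log2 difference 1.63, SE 0.22, adjusted p = 0.00185), with border arrays at 8.20 and 7.23 against 6.06 to 6.15, and this call passed under all 17 alternatives. No other member passed: limma called 1 of 67 higher (1.49%, against 3.31% of all probe sets) and 0 lower (against 2.67%), where 5.97% of all probe sets passed in either direction. At an unadjusted p under 0.05 there were 9 lower members (13.4%, against 7.59% of all probe sets). Leaving out replicate 1 of the anterior fold, of the stage 14 border or of the stage 18 border turned the count of 0 into 1. The median log2 difference was -0.17 over the members and 0.00 over all probe sets, and it was -0.07 without stage 18 border replicate 2 and -0.26 without replicate 1. In this comparison 12 of 14 border and crest markers were higher in the border and 9 of 10 anterior fold markers were lower. Also lower in the border were 4 of 6 gland markers (summed level 11.7 to 11.8, against 13.2 to 13.4 in the fold; log2 differences of -5.37 for agr2.L and -4.19 for agr2.S), 4 of 5 notochord markers (6.56 to 6.95, against 8.12 to 8.75, with shh.L at a log2 difference of -2.48) and 2 of 7 neural plate markers. Higher in the border were 2 of 11 epidermis, 2 of 6 multiciliated, 2 of 7 ionocyte, 2 of 8 muscle and 1 of 7 neural plate markers. The ionocyte sum was 7.26 and 8.19 in stage 18 border replicates 1 and 2 and 6.86 to 6.98 in the fold. The muscle sum was 7.44 and 6.74 in these border replicates and 6.46 to 6.64 in the fold. In the same replicate order sdhb.S was at 8.20 and 7.23. Of the 2 ionocyte markers, ca2.L was below background in both tissues, with means of 3.67 and 2.53. The other, ubp1.L, was at 3.84 in the border and below background in the fold. The part of these markers in the difference of sdhb.S was not tested.

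For 13 genes both the L and the S copy were measured, and in most pairs the copies had differences of the same sign. Between the stage 14 border and the plate, both copies passed in 1 of the 13 pairs (atp5pb), 1 copy passed in 7 and neither in 5, and in 4 pairs the signs were opposite. The 4 include cox4i2, whose L copy was below background, and cox7c, whose L copy had a difference of -0.01. Signs were opposite in 4 pairs for the plate against the cap and in 2 pairs in each remaining comparison. In no comparison did both copies of a pair pass in opposite directions. atp5pd.S rose by 0.79 while atp5pd.L, on a dim probe set at 4.61 to 5.30 in these tissues, had a difference of -0.39. The copies of atp5po passed in different comparisons. Log2 differences between the stage 14 border and the plate were 1.42 for the L and 0.27 for the S copy, and between the borders -0.25 and -1.06. For cox4i2 the L copy was below background on every array, and the S copy was not below it on any. Differences between copies were not tested, and probes of near-identical copies can bind both transcripts, so the split of signal between copies is uncertain.

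For 3 symbols a second, dimmer probe set was present. Those of cox4i1.S and ndufb9.L had log2 differences of 1.03 and 0.95 between the stage 14 border and the plate and passed the threshold in the same direction as the ones used. ndufb10.S, an accessory subunit of complex I, had probe sets that disagreed. The brighter was at 6.69 and 6.67 in the plate and 8.08, 7.77 and 7.64 in the stage 14 border, a difference of 1.15 (adjusted p = 9.421e-05). The dimmer was at 7.15 and 7.04 in the plate and 6.91, 6.38 and 6.79 in the border, a difference of -0.41 (adjusted p = 0.0626). Against the animal cap, the plate was lower by the brighter (log2 difference -1.08) and higher by the dimmer (0.74, adjusted p = 0.0225). The direction for ndufb10.S is therefore not settled by these arrays. All counts of members given above include it by its brighter probe set.

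Of the 67 members, 46 passed the threshold in 1 or more of the 5 comparisons and 21 in none. The matching share of all probe sets was not counted, so the 46 cannot be read as particular to these genes. Between the stage 14 border and the plate alone, 41% of all probe sets passed. Among the 21 were the complex I subunits ndufs1.L, ndufs8.L, ndufa10.L and ndufb3.S, both copies of ndufa4 (a gene named for complex I whose product is placed in complex IV in mammals), sdha.L, uqcrb.S, uqcrc1.L and uqcrc2.L, and the ATP synthase genes atp5f1b.S, atp5mg.L and atp5pf.L. The group means of ndufa4.S spanned 0.13 on the log2 scale over the 5 tissues and those of atp5mg.L spanned 0.24. A gene that did not pass is not thereby shown to be equal between tissues at this number of arrays.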

How the data were processed

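The authors deposited 1 value per probe set and array, read here as log2 intensity from its range (2.13 to 13.56). Per the submitters' processing notes R 2.14.2 was used. For background correction, summary and normalization, no method was found (not given in the sources used here). Array medians of 4.94 to 5.04 put the arrays on a shared scale. Of 15611 probe sets 120 are controls. Of the rest, 9304 had 1 symbol in the platform annotation, 195 several and 5992 none listed. A further 5 probe sets that name a member gene beside others were not used. All 67 member symbols matched the RefSeq gene table and 0 changed.

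The 11 arrays entered 1 limma model (limma 3.58.1, R 4.3.3) with a mean per group, so that groups of 1 to 3 arrays share an estimate of spread (6 residual and 3.75 prior degrees of freedom, prior SD 0.16). Two-sided p-values were adjusted by Benjamini-Hochberg over 15491 probe sets in each comparison. SEs come from the model, SDs from the arrays. The procedure was tested on simulated data.

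Genes were named by rule: per comparison, the 6 largest rises and falls past the threshold without overlap between arrays, up to 2 more per complex, all of complex II, and copies or probe sets that oppose each other. Other genes in the text (further members past the threshold, members past in none, examples from other gene groups) were chosen after their values were seen. The members and lists were chosen with earlier results of these data known. Alternatives were quantile normalization, median centring, leaving out dim probe sets, modelling only the arrays compared, trend and robust spread, mean of probe sets, merged copies, updated symbols, a replicate block and leaving out each array. Sequences were not used here.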

Additional observations from a re-analysis of the deposited data

How the results depend on the processing

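No named change reversed its direction under any alternative. Over the members, the comparisons and the 17 alternatives, a call of the main model was lost 137 times. Calls were gained as well. Without stage 18 border replicate 1, 4 members gained a call for the plate against the cap. In the same setting 3 gained a call for the stage 14 border against the plate. The calls that passed under every alternative were 20 of 30 cases for the stage 14 border against the plate, 1 of 9 for the stage 18 against the stage 14 border, 1 of 1 for the stage 18 border against the anterior fold, 8 of 17 for the stage 14 border against the cap and 12 of 22 for the plate against the cap. With only the arrays compared in the model (fewer arrays), 0 members were higher and 1 lower between the borders, and 5 were lower in the stage 14 border than in the cap. Quantile normalization gave a median of -0.42 for the plate against the cap. With copies merged, 2 genes in place of 4 were lower in the stage 14 border than in the plate.

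The replicate block left 5 members lower between the borders and 4 lower in the stage 14 border than in the cap. Deviations of same-numbered arrays from their group means correlated at -0.10 to 0.26 over 13 pairs, 2 of them above 0.1. In a group of 2 arrays these deviations mirror each other, so the 13 values are not independent. They cannot decide whether same-numbered samples share a clutch.

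With each array left out in turn, members higher and lower numbered 19 to 26 and 3 to 8 for the stage 14 border against the plate (median 0.12 to 0.22), 1 to 1 and 3 to 7 between the borders (median -0.31 to -0.11), 1 to 1 and 0 to 1 for the stage 18 border against the fold (median -0.26 to -0.0687), 8 to 10 and 4 to 8 for the stage 14 border against the cap (median -0.08 to 0.01), and 2 to 4 and 13 to 22 for the plate against the cap (median -0.36 to -0.31). Arrays that moved a count or median by over 1.5 times are named with the results. The lone cap array could not be left out, and medians were not recomputed for the trend and robust spread, which leaves fold changes as they are. For the remaining moves the cause was not tested. Signals below 3.72 carry no order.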
